A study of Arabidopsis thaliana with 72 samples.

Results

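Citral, a mixture of monoterpene aldehydes with a lemon scent, was given to Arabidopsis thaliana seedlings, and RNA was sequenced from their shoots and roots. The 10 genes described here encode light-harvesting proteins of photosystem II: LHCB1.1 (AT1G29920), LHCB1.2 (AT1G29910), LHCB1.3 (AT1G29930), LHCB1.4 (AT2G34430), LHCB1.5 (AT2G34420), LHCB2.1 (AT2G05100), LHCB2.2 (AT2G05070), LHCB2.3 (AT3G27690), LHCB3 (AT5G54270) and LHCB4.1 (AT5G01530). They were chosen by locus identifier, and all 10 were found among the 22122 loci of the deposited table. Seedlings grown on agar were 14 days old when treated. In each organ the groups were citral at 202 µM, sampled at 5 times between 1 h and 24 h, 0.1% ethanol at the same times and at 0 h, and untreated seedlings at 0 h. That made 24 groups of 3 libraries, 72 libraries in all. No mutant or transgene was named in the labels. Nothing says that the 3 libraries of a group came from separate plates, so the p-values measure the spread between libraries, which may be technical. In whole organs, fewer cells of a type and less RNA per cell cannot be told apart.

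In land plants the LHCB proteins bind chlorophyll a and b in the thylakoid membrane of the chloroplast and pass light energy to the photosystem II core. LHCB1, LHCB2 and LHCB3 build the trimers of the major antenna, LHCII, and LHCB4, also called CP29, is a monomeric antenna that joins trimers to the core. The genes lie in the nucleus, their transcripts are among the most abundant of green tissue, and their levels are known to follow light and the circadian clock.

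The copies LHCB1.1, LHCB1.2 and LHCB1.3 lie side by side on chromosome 1 of the TAIR10.1 assembly, at chr1:10474656-10475969 on the minus strand, chr1:10472280-10473502 on the minus strand and chr1:10477885-10479114 on the plus strand. Each is a single exon, and their coding sequences of 804 bases differ at 47 positions among the 3. They are shown because these near-identical copies changed by unequal amounts, as given below. The stretch is coding bases 25 to 84, 5′ to 3′, with the 8 positions that differ among the copies in capitals.
LHCB1.1: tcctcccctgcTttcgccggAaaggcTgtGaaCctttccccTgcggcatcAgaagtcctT
LHCB1.2: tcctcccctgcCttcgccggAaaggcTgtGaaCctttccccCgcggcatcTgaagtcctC
LHCB1.3: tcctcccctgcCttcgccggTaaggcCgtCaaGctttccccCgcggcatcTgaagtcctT
Over the coding region LHCB1.1 was 95.6% identical to LHCB1.2 and 96.1% to LHCB1.3, while LHCB1.2 and LHCB1.3 shared 96.4%. LHCB1.4 and LHCB1.5, on chromosome 2, were 92.5% identical to each other, and LHCB2.1 and LHCB2.2, also on chromosome 2, 91.6%. LHCB4.1 was the most distant, at 54.7% to 60.3% identity with the other 9. The share of a gene's 50-base exon windows that also occur elsewhere in the genome was 20.5% for LHCB1.1, 10.6% for LHCB1.2, 17.0% for LHCB1.3, 13.7% for LHCB1.4, 17.3% for LHCB1.5, 20.2% for LHCB2.1 and 28.2% for LHCB2.2. LHCB2.3, LHCB3 and LHCB4.1 had 0 such windows. How reads that match several copies were counted is not stated, so the levels of LHCB1.1 to LHCB1.5, LHCB2.1 and LHCB2.2 are less certain than those of the other 3 genes.

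The 250 bases before the annotated start are shown for 4 genes: the tandem copies LHCB1.1 and LHCB1.3, and the genes with the largest and the smallest decrease at 6 h, LHCB2.3 and LHCB4.1. They are RefSeq sequence of TAIR10.1, read 5′ to 3′ on the gene's strand, from chr1:10475970-10476219 (minus), chr1:10477635-10477884 (plus), chr3:10255656-10255905 (plus) and chr5:208616-208865 (plus). Capitals mark the letters of CCAATC, a motif bound by GOLDEN2-LIKE (GLK) factors, of the G-box CACGTG and of the CCA1 site AAAAATCT, searched on both strands.
LHCB1.1: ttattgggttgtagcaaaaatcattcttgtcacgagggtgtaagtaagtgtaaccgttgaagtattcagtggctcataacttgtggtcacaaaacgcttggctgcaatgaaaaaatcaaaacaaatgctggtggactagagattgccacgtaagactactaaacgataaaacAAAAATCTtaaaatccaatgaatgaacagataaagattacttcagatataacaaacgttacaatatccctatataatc
LHCB1.3: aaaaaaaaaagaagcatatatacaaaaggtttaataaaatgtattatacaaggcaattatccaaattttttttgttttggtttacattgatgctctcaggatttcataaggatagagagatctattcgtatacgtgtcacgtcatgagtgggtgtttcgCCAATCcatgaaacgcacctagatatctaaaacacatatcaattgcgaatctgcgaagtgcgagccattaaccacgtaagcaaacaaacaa
LHCB2.3: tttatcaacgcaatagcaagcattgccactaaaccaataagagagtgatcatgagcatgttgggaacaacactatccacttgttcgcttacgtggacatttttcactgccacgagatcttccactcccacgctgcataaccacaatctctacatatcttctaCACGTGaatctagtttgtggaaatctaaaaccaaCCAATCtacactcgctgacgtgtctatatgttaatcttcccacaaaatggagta
LHCB4.1: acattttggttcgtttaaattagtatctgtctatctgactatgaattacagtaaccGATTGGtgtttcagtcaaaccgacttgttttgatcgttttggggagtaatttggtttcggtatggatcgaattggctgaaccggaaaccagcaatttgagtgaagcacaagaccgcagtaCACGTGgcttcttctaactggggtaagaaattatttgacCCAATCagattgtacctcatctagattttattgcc
CCAATC stood in this window in 6 of the 10 genes (LHCB1.3, LHCB1.5, LHCB2.1, LHCB2.2, LHCB2.3 and LHCB4.1), against 10.2% of the windows of 27443 protein-coding genes. CACGTG stood in LHCB2.3 and LHCB4.1 (6.49% of all genes), AAAAATCT in LHCB1.1 and LHCB1.4 (6.69% of all genes), the I-box GATAAG in LHCB2.1 (12.3% of all genes) and the evening element AAAATATCT in 0 of the 10 (2.36% of all genes). A match is a description of the letters and not a bound site. LHCB1.3 holds CCAATC, its tandem copy LHCB1.1 holds AAAAATCT, and LHCB1.2 holds none of the 5 motifs.

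Recovered reads ranged from 1.58 to 3.62 M (M for 1000000 reads) in the 30 citral libraries and from 0.183 to 20.6 M in the 42 control libraries. The medians were 3.43 M for citral and 11.4 M for controls, so agent and depth went together. The part of depth in the citral differences was not tested. Under 0.5 M reads were held by 4 control libraries: replicate 2 of ethanol shoots at 12 h, replicate 3 of ethanol shoots at 24 h, and replicate 1 of ethanol roots at 0 h and at 3 h. The first of them, ethanol shoots at 12 h replicate 2, also stood apart otherwise: 73.9% of loci were at the floor of the table, and mitochondrial genes took 0.516% of its reads, against at most 0.0154% in any other library. Means below leave these 4 out, while the tests keep them with low weights. The photosynthesis gene RBCS1A had 2755 to 11560 CPM (reads per 1000000 recovered reads) over the shoot libraries and 16.5 to 153 CPM over the root libraries, while CASP1, a gene of the root endodermis, had 0.141 to 5.21 CPM in shoots and 35.7 to 203 CPM in roots. The clock gene LHY had 16.1 ± 2.03 CPM in ethanol shoots at 0 h, 692 ± 64.1 at 12 h and 407 ± 16.3 at 24 h (SD, n = 3, 2 and 2), so the ethanol shoots labelled 0 h and 24 h, 1 day apart, were far apart in the level of a clock gene. CCA1, its partner, was at 384 ± 4.29 CPM at 24 h and 47.7 ± 3.12 CPM at 0 h in the same shoots. In citral shoots LHY was at 46.2 ± 8.97 CPM at 12 h, against the 692 CPM of ethanol shoots, and at 47.3 ± 1.38 CPM at 24 h, against the 407 CPM of ethanol shoots. CCA1 was at 116 ± 10.9 CPM in citral shoots at 12 h, against 588 ± 25.9 CPM in ethanol shoots, and at 124 ± 15.1 CPM in citral shoots at 24 h (SD, n = 3 for citral and 2 for ethanol). At 3 h LHY was at 6.52 ± 1.78 CPM in citral shoots and 36.4 ± 10.6 CPM in ethanol shoots. CCA1 was then at 40.1 ± 5.41 and 90.1 ± 23.5 CPM, and at 1 h at 3.28 ± 2.1 and 8.57 ± 1.21 CPM (SD, n = 3 each). These groups did not overlap, while at 6 h the groups overlapped for both clock genes. The part of these clock gene differences in the LHCB values at any time was not tested.

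In untreated shoots the 10 genes together took 6.68, 6.46 and 5.71% of all reads in the 3 libraries. Per kb of exon LHCB1.3 stood highest at 10740 ± 1012 CPM per kb, followed by LHCB1.5 at 7894 ± 826, LHCB3 at 6944 ± 344, LHCB1.2 at 5601 ± 519, LHCB1.1 at 4830 ± 655, LHCB2.2 at 3904 ± 328, LHCB2.1 at 3877 ± 139, LHCB1.4 at 2807 ± 435, LHCB4.1 at 2722 ± 276 and LHCB2.3 at 1481 ± 199 (SD, n = 3). In this order LHCB1.5 and LHCB3, LHCB1.2 and LHCB1.1, LHCB2.2 and LHCB2.1, and LHCB1.4 and LHCB4.1 overlapped between libraries, and the other neighbours did not. In untreated roots LHCB1.5 was highest at 67.2 ± 11.9 CPM per kb and LHCB2.3 lowest at 0.511 ± 0.0841. All 10 were called higher in untreated shoots than in untreated roots (limma's voom with library quality weights, call at a Benjamini-Hochberg adjusted p under 0.05 over all loci), as were 36% of all loci tested. The log2 differences ran from 7.08 for LHCB4.1 to 11.91 for LHCB2.3, with a median of 9.81, against -0.082 over all loci.

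In shoots, citral was followed by lower transcript levels of the whole group within 6 h. Of the 10 genes 7 were called lower in citral shoots than in ethanol shoots at 1 h (7.91% of all loci), 10 at 3 h (26.4%) and 10 at 6 h (19.9%). None was called higher at those times, where 12.6%, 23.7% and 21.6% of all loci were. The median log2 change of the 10 genes was -1.41 at 1 h, -1.39 at 3 h and -3.82 at 6 h, against -0.029, -0.065 and -0.008 over all loci. At each of these times every citral library lay below every ethanol library of the same time for all 10 genes, which held for 30.2% of all loci at 1 h, 39.4% at 3 h and 25.2% at 6 h. Together the 10 genes took 0.4597 ± 0.113% of reads in citral shoots at 6 h, against 3.04 ± 0.314% in ethanol shoots (SD, n = 3 each).

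**Figure D1:**
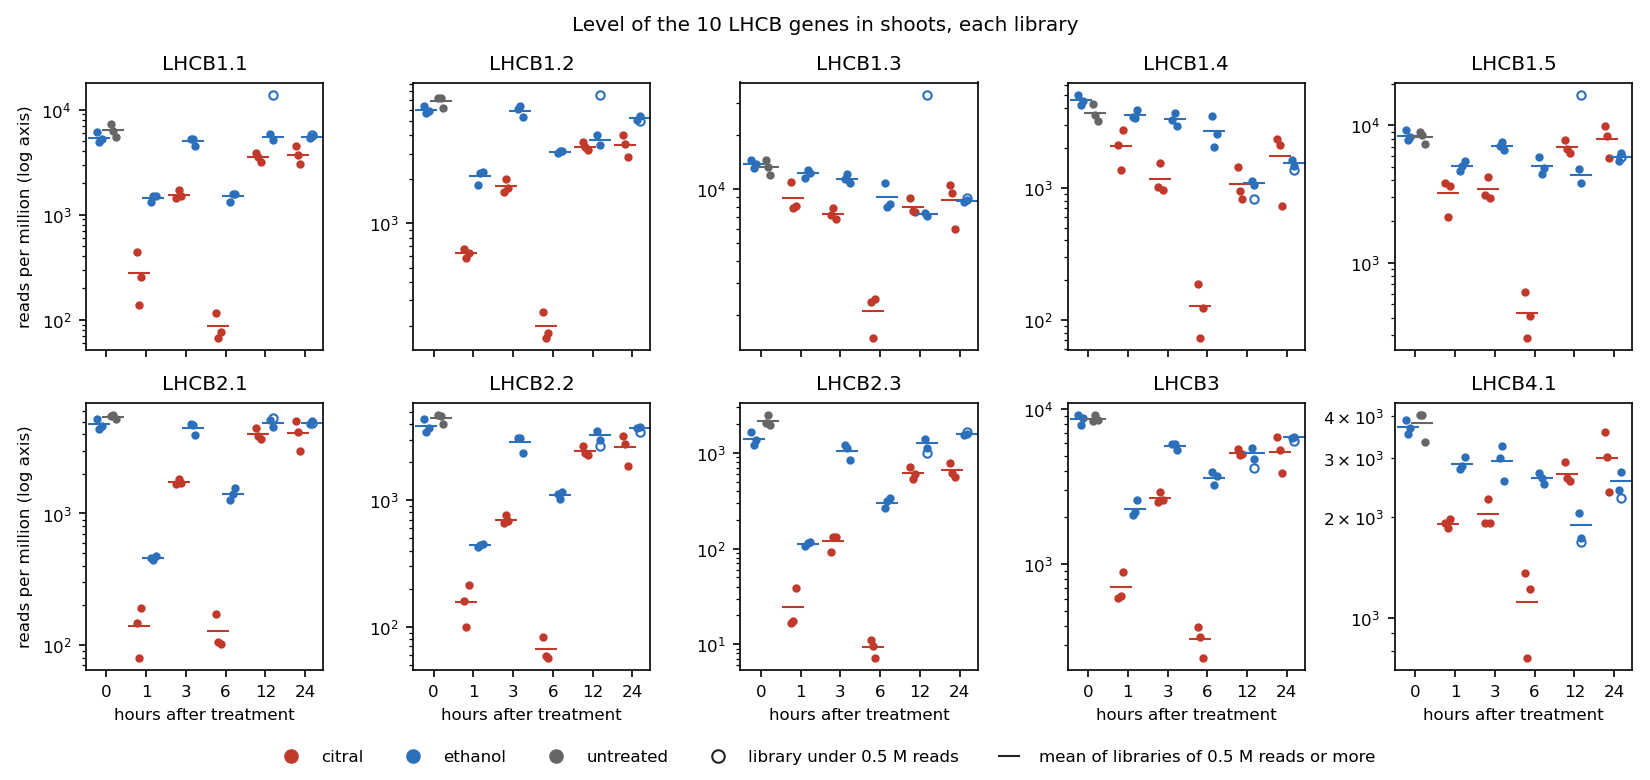
Reads per 1000000 (CPM, log axis) of each LHCB gene in each shoot library against the hours after treatment, with citral, ethanol and untreated libraries as points and short lines for means of libraries of 0.5 M reads or more. The citral libraries at 1, 3 and 6 h lie below the ethanol libraries of the same time in all 10 panels, and open circles are the libraries under 0.5 M reads.

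LHCB1 genes encode the most abundant LHCII subunit. LHCB1.1 had 438, 139 and 255 CPM in the 3 citral libraries at 1 h, against 1333, 1490 and 1509 CPM in the ethanol libraries, and 116, 67.5 and 77.3 CPM in citral libraries at 6 h, against 1333, 1589 and 1570 CPM in ethanol libraries. All citral libraries were low at both times, with no overlap. LHCB1.1 was 4.93-fold lower at 1 h (log2 change -2.30 ± 0.23, SE, adjusted p = 1.38e-08), 3.04-fold lower at 3 h and 18.1-fold lower at 6 h (-4.18 ± 0.25, adjusted p = 1.07e-13). LHCB1.2 had 249, 166 and 180 CPM in citral shoots at 6 h, against 3043, 3106 and 3137 CPM in ethanol shoots. This was 16.2-fold lower (-4.02 ± 0.13, adjusted p = 1.52e-21), and the changes at 1 and 3 h were -1.54 ± 0.13 and -1.64 ± 0.12.

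The remaining tandem copy, LHCB1.3, had smaller log2 changes. At 1 h it had 11010, 7825 and 8079 CPM in citral shoots, against 11530, 12790 and 12340 CPM in ethanol shoots, a log2 change of -0.30 ± 0.17 that was not called (adjusted p = 0.222). At 6 h LHCB1.3 had 2363, 1492 and 2457 CPM in citral shoots, against 10830, 7959 and 8254 CPM in ethanol shoots. It was then 4.16-fold lower (-2.06 ± 0.16, adjusted p = 6.47e-12), with all 3 citral libraries below the ethanol ones. The difference between the copies' changes was not tested.

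LHCB1.4 and LHCB1.5 were not called at 1 h (log2 changes -0.62 ± 0.31 and -0.47 ± 0.22, adjusted p = 0.175 and 0.129) and were called lower at 3 and 6 h. LHCB1.4 had 187, 73.4 and 123 CPM in citral shoots at 6 h, against 3506, 2019 and 2572 CPM in ethanol shoots, 21.5-fold lower (adjusted p = 2.57e-11). LHCB1.5 had 611, 286 and 411 CPM in citral shoots at 6 h, against 5885, 4457 and 4876 CPM in ethanol shoots, 12.1-fold lower (adjusted p = 7.38e-14). For both genes the highest citral library at 6 h stood far under the lowest ethanol library.

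LHCB2 proteins share the trimers with LHCB1 and are phosphorylated when antenna trimers move between the photosystems. LHCB2.3 had the most negative fitted log2 change of the 10 genes at 3 and 6 h. It had 93.02, 133 and 131 CPM in citral shoots at 3 h, against 1206, 1129 and 836 CPM in ethanol shoots, 8.51-fold lower (-3.09 ± 0.18, adjusted p = 1.7e-14). At 6 h LHCB2.3 had 11.2, 9.47 and 7.17 CPM in citral shoots, against 263, 311 and 334 CPM in ethanol shoots, 35.4-fold lower (-5.15 ± 0.39, adjusted p = 7.73e-12). No citral library of LHCB2.3 reached the level of any ethanol library of its own time at 1, 3, 6, 12 or 24 h.

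LHCB2.1 had 173, 105 and 102 CPM in citral shoots at 6 h, against 1271, 1402 and 1564 CPM in ethanol shoots, 12.2-fold lower (adjusted p = 1.54e-14). LHCB2.2, its closest relative in sequence, had 83.02, 59.2 and 56.9 CPM in citral shoots at 6 h, against 1114, 1018 and 1158 CPM in ethanol shoots, 17.4-fold lower (adjusted p = 7.97e-16). Neither gene's groups overlapped. At 1 h LHCB2.1 had 148, 79.7 and 190 CPM in citral shoots, against 457, 445 and 475 CPM in ethanol shoots (-1.59 ± 0.21). The ethanol level at 1 h was itself low, as given below.

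LHCB3 encodes an LHCII subunit. It had 609, 625 and 892 CPM in citral shoots at 1 h, against 2079, 2173 and 2584 CPM in ethanol shoots, and 397, 337 and 249 CPM in citral shoots at 6 h, against 3911, 3226 and 3683 CPM in ethanol shoots. LHCB3 was 2.82-fold lower at 1 h (adjusted p = 5.01e-09) and 11.8-fold lower at 6 h (-3.56 ± 0.15, adjusted p = 2.54e-18), with no overlap. LHCB4.1, the CP29 gene, had the smallest decrease at 6 h: 1365, 761 and 1217 CPM in citral shoots, against 2709, 2619 and 2501 CPM in ethanol shoots, 2.37-fold lower (-1.24 ± 0.15, adjusted p = 3.96e-08). Its groups did not overlap at 1, 3 or 6 h, but the changes at 1 and 3 h were small (-0.43 ± 0.15, adjusted p = 0.043, and -0.47 ± 0.14, adjusted p = 0.00471). The 1 h call of LHCB4.1 was lost when any 1 of the 6 libraries compared was left out, with adjusted p from 0.0734 to 0.0993, and its 3 h call without replicate 2 of the ethanol group (adjusted p = 0.0799).

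**Figure D2:**
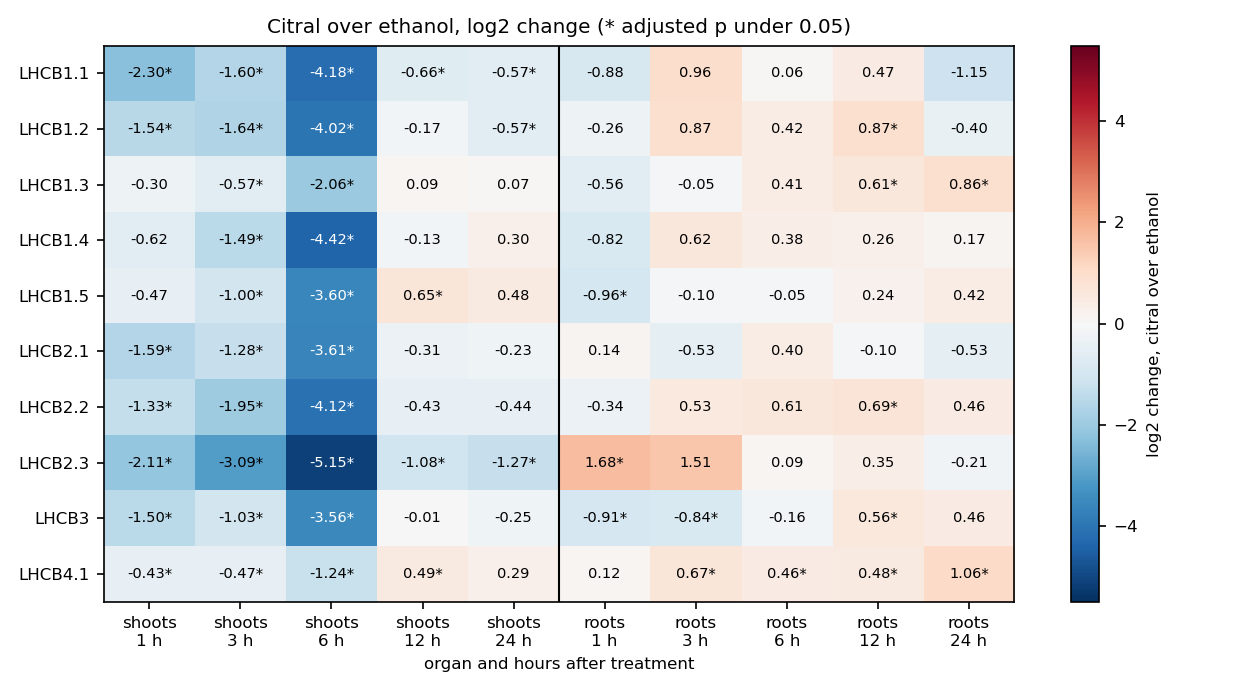
Log2 change of each LHCB gene in citral over ethanol by organ and hours after treatment, with a star where the adjusted p was under 0.05. Shoots at 6 h hold the lowest values, from -5.15 for LHCB2.3 to -1.24 for LHCB4.1, and no root value is below -1.15.

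At 12 h the shoots no longer differed in 1 direction. Of the 10 genes 2 were called lower in citral shoots (19.0% of all loci) and 2 higher (18.9%), and at 24 h 3 were called lower (17.2%) and 0 higher (16.1%). At 12 h these shares are near those of all loci. The median log2 change was -0.15 at 12 h and -0.24 at 24 h, against -0.021 and -0.056 over all loci. LHCB2.3 was still low: it had 717, 538 and 599 CPM in citral shoots at 12 h, against 1390, 1010 and 1139 CPM in ethanol shoots, and 789, 616 and 563 CPM in citral shoots at 24 h, against 1535, 1596 and 1644 CPM in ethanol shoots. LHCB2.3 was 2.12-fold lower at 12 h (adjusted p = 3.58e-05) and 2.42-fold lower at 24 h (adjusted p = 5.33e-06).

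LHCB1.1 was called lower at 12 h (-0.66 ± 0.22, adjusted p = 0.0186) and at 24 h (-0.57 ± 0.22, adjusted p = 0.0479), and LHCB1.2 at 24 h (-0.57 ± 0.13, adjusted p = 0.00068). LHCB1.5 (0.65 ± 0.21, adjusted p = 0.0142) and LHCB4.1 (0.49 ± 0.15, adjusted p = 0.00884) were called higher in citral shoots at 12 h. LHCB4.1 had 2915, 2609 and 2563 CPM in citral shoots at 12 h, against 2060, 1687 and 1737 CPM in ethanol shoots, with no overlap. LHCB1.5 had 7802, 6735 and 6293 CPM in citral shoots at 12 h, against 4819, 16670 and 3822 CPM in ethanol shoots, where the high value is the library of 0.327 M reads and the groups overlap through it. The count of 4 calls at 12 h was also 4 without that library, and 0 without replicate 1 or without replicate 3 of the ethanol group. The 3 calls at 24 h became 5 without replicate 1 of the citral group. The 12 h call of LHCB1.1 was also lost without citral replicate 2 (adjusted p = 0.0697) or 3 (0.0716). At 24 h the call of LHCB1.1 was lost without each of 5 of the 6 libraries in turn. LHCB1.4 had 2330, 2117 and 732 CPM in citral shoots at 24 h, against 1629, 1455 and 1364 CPM in ethanol shoots, so citral replicate 3 was below and the other citral libraries above all ethanol libraries.

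The ethanol shoots alone moved strongly with time. LHCB2.3 had 1406 ± 220 CPM in ethanol shoots at 0 h, 113 ± 6.45 at 1 h, 1057 ± 195 at 3 h, 303 ± 36 at 6 h, 1264 ± 178 at 12 h and 1565 ± 42.99 at 24 h (SD, n = 3 at 0 to 6 h and 2 at 12 and 24 h). At 1 h 8 of the 10 genes were called lower than at 0 h (29.8% of all loci), from -0.52 ± 0.14 for LHCB4.1 to -3.80 ± 0.18 for LHCB2.3. At 3 h 7 were called higher than at 1 h (31.0%), and at 6 h 8 lower than at 3 h (7.35%). At 12 h 6 were called higher than at 6 h (20.1%) and LHCB1.4 lower (20%), and at 24 h LHCB1.2 alone was called, as higher than at 12 h (4.29%). At 24 h 5 were lower than at 0 h (20.5%), with LHCB1.4 at -1.61 ± 0.27, while LHCB2.3 differed by 0.21 ± 0.17 (adjusted p = 0.333). Comparisons at successive times share ethanol libraries. The clock genes LHY and CCA1 also fell and rose in these ethanol shoots. LHY had 16.1 CPM at 0 h, 2.91 at 1 h, 36.4 at 3 h, 1.84 at 6 h and 692 at 12 h. CCA1 had 47.7, 8.57, 90.1, 8.72 and 588 CPM at the same times. The time labels were taken as given and could not be checked. The part of the clock genes in the LHCB course was not tested.

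LHCB1.3 spanned a narrower range over these times: it had 13820 ± 665 CPM in ethanol shoots at 0 h, 12220 ± 638 at 1 h, 11430 ± 679 at 3 h, 9014 ± 1578 at 6 h, 7237 ± 244 at 12 h and 8563 ± 144 at 24 h. The citral libraries were therefore also set against all 19 shoot control libraries of 0.5 M reads or more, of any time. All 3 citral libraries were below every control for 10 of the 10 genes at 6 h (5.68% of all loci), for 6 at 1 h (10.3%), and for 0 at 3 h (10.4%), 12 h (2.63%) and 24 h (3.73%). The 6 genes at 1 h were LHCB1.1, LHCB1.2, LHCB2.1, LHCB2.2, LHCB2.3 and LHCB3. LHCB4.1 reached at most 1365 CPM in citral shoots at 6 h, against at least 1737 CPM in those 19 controls.

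At 0 h LHCB2.3 was the 1 gene called between ethanol and untreated shoots. It had 1642, 1205 and 1373 CPM in ethanol shoots, against 2054, 2502 and 1953 CPM in untreated shoots (-0.64 ± 0.16, adjusted p = 0.00497), and the groups did not overlap. Of all loci 13.0% were called lower in that comparison, so 1 of 10 is near the share of all loci.

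The makeup of the group differed between citral and ethanol shoots, and between times among ethanol shoots. Ethanol shoots at 1 and 6 h had like totals, 3.05 ± 0.177% and 3.04 ± 0.314% of reads, with unlike shares of LHCB1.3. Per kb of exon, LHCB1.3 made up 46.6 ± 4.22% of the summed level of the 10 genes in citral shoots at 6 h, against 29.4 ± 2.097% in ethanol shoots, and 49.2 ± 5.55% in citral shoots at 1 h, against 39.8 ± 1.49% in ethanol shoots (SD, n = 3 each). LHCB4.1 made up 21.6 ± 1.096% in citral shoots at 6 h, against 7.57 ± 0.6701% in ethanol shoots. The 3 LHCB2 genes made up 4.27 ± 0.888% in citral shoots at 6 h, against 8.81 ± 1.23% in ethanol shoots. The groups did not overlap in any of these 4 comparisons, which were not tested.

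The ratio of LHCB1.1 to LHCB1.3 per kb was 0.0278 ± 0.0104 in citral shoots at 1 h, against 0.111 ± 0.00337 in ethanol shoots, and 0.0393 ± 0.00876 in citral shoots at 6 h, against 0.1601 ± 0.03902 in ethanol shoots. In untreated shoots it was 0.449 ± 0.0189. The ratio was also lower in ethanol shoots at 1 and 6 h than in those at 3, 12 and 24 h. In roots at 24 h it was 0.00884 ± 0.000478 in citral, against 0.0547 ± 0.0194 in ethanol, with no overlap. LHCB1.1 reached at most 1.44 CPM in those citral roots. At the other times the citral and ethanol roots overlapped in this ratio, and no ratio was tested.

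**Figure D3:**
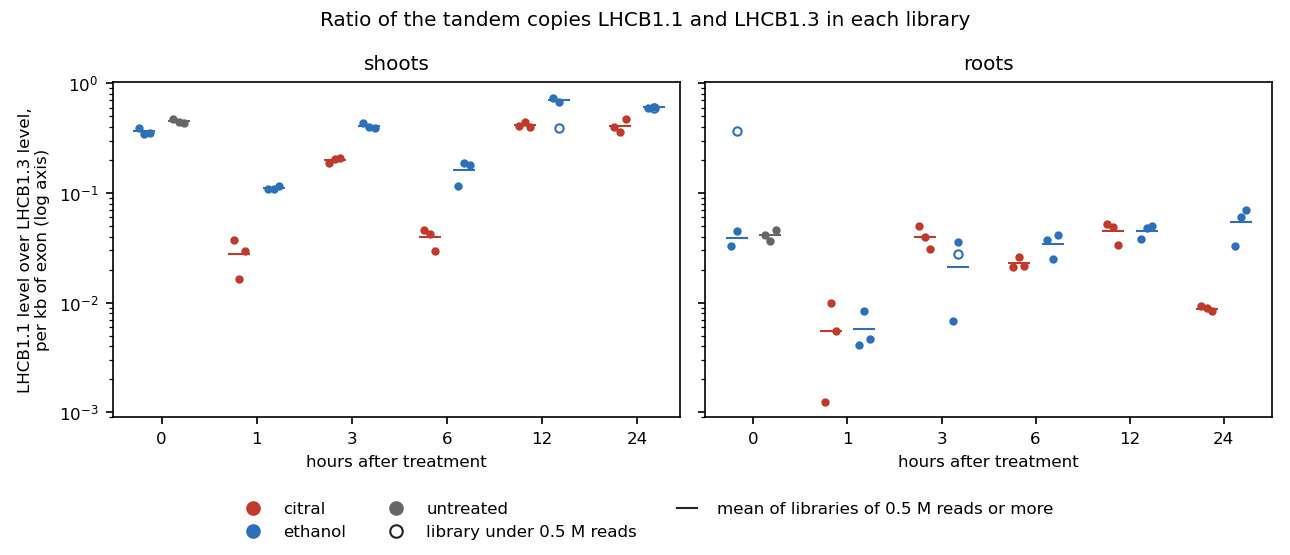
Level of LHCB1.1 divided by that of LHCB1.3, per kb of exon (log axis), in each library against the hours after treatment, for shoots and roots, with short lines for means of libraries of 0.5 M reads or more. Ratios of such libraries in shoots run from 0.0166 in citral to 0.737 in ethanol, and the open circle in roots at 0 h, with a ratio of 0.368, stands near the shoots.

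Over the 12 shoot group means the log2 levels of the members correlated with their mean profile with Pearson's r between 0.736 for LHCB1.4 and 0.996 for LHCB1.2. LHCB1.3 (0.796) and LHCB4.1 (0.87) were also among the least alike, and the closest pair was LHCB2.2 with LHCB2.3 (0.994). Outside the 10 genes the loci most like the mean profile were AT1G21500, an uncharacterized protein (r = 0.993), LHCB5, the antenna CP26 (0.991), and LHCA4 of the photosystem I antenna (0.989). These 12 points share libraries and scaling, so the values are descriptions.

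In roots the same genes were found at far lower levels and were not called lower as a group. Over all times their summed level was 173 to 633 CPM in the 15 citral root libraries. It was 140 to 598 CPM in the 19 control root libraries of 0.5 M reads or more. At 1 h the sum was lower in citral roots, at 224.2 ± 15.74 CPM, against 396.7 ± 65.62 CPM in ethanol roots. At 12 h it was higher in citral roots, at 555.3 ± 81.75 CPM, against 411.7 ± 18.24 CPM in ethanol roots (SD, n = 3 each). The groups did not overlap in this sum at 1 or 12 h, and overlapped at 3, 6 and 24 h. These differences in the sum were not tested. At 6 h LHCB1.3 had 128, 103 and 88.5 CPM in citral roots, against 91.02, 79.9 and 76.01 CPM in ethanol roots, which overlapped. LHCB1.1 had 2.91, 2.87 and 2.05 CPM in citral roots, against 3.605, 2.14 and 3.33 CPM in ethanol roots at that time. LHCB2.3 was at the floor of the table in all 3 citral root libraries at 6 h, where 3 reads, the limit that a count of 0 allows by counting error alone, would be 0.862 to 0.877 CPM.

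Few root genes of the group were called. At 1 h 1 of the 10 genes was called higher in citral roots (22.7% of all loci) and 2 lower (19.8%). At 3 h 1 was called higher (22.1%) and 1 lower (25.3%), at 6 h 1 higher (22.4%) and 0 lower (26.4%), at 12 h 5 higher (18.2%) and 0 lower (18.0%), and at 24 h 2 higher (20.3%) and 0 lower (18.2%). The 5 at 12 h were LHCB1.2, LHCB1.3, LHCB2.2, LHCB3 and LHCB4.1, and their share was above that of all loci. That count became 2 without replicate 2 of the ethanol group, 3 without replicate 3 of it or replicate 1 of the citral group, 1 without replicate 3 of the citral group, and 0 in a fit without library weights. LHCB3 had 94.3, 83.2 and 102 CPM in citral roots at 12 h, against 59.5, 67.3 and 62.1 CPM in ethanol roots (0.56 ± 0.17, adjusted p = 0.00964), with no overlap. Without citral replicate 3 this call was lost (adjusted p = 0.0729). The summed level of 9 shoot markers in roots at 12 h was 156 to 182 CPM in citral and 111 to 138 CPM in ethanol, and its part in the result was not tested.

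LHCB4.1 was called higher in citral roots at 3, 6, 12 and 24 h. Its calls at 3, 6 and 12 h were each lost without 1 of several libraries: at 3 h ethanol replicate 1 or 2 or citral replicate 2 (adjusted p 0.0638 to 0.721), at 6 h ethanol replicate 2 or 3 or citral replicate 2 (0.0626 to 0.154), and at 12 h ethanol replicate 2 or citral replicate 3 (0.0639 and 0.137). At 24 h it had 66.8, 73.6 and 69.1 CPM in citral roots, against 33.8, 35.6 and 62.04 CPM in ethanol roots (1.06 ± 0.15, adjusted p = 1.89e-06). The groups did not overlap, although ethanol replicate 3 was high, and the call was lost without ethanol replicate 1 (adjusted p = 0.11) or 2 (0.097). Ethanol replicates 1 and 2 differed by little more than counting error, at a chi-square per locus of 1.26. Against replicate 3 they stood at 19.86 and 18.95. Whether replicates 1 and 2 are technical repeats was not tested. The same ethanol replicate 3 had 598 CPM of the 10 genes together, against 301 and 298 CPM in its partners, and 153 CPM of the shoot markers, against 83.5 and 86.9 CPM. In citral roots at 24 h that marker sum was 122 to 140 CPM, and its part in the result was not tested.

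LHCB2.3 was called higher in citral roots at 1 h, with 6.09, 4.15 and 5.33 CPM in citral roots against 4.09, 1.88 and 0.937 CPM in ethanol roots (1.68 ± 0.39, adjusted p = 0.000637). All 3 citral libraries lay above the ethanol libraries, and above all 19 root controls of 0.5 M reads or more. LHCB3 was lower at 1 h, with 7.91, 13.6 and 9.76 CPM in citral roots against 29.7, 21.3 and 27.98 CPM in ethanol roots (-0.91 ± 0.34, adjusted p = 0.0314). LHCB1.5 had 15.8, 26.99 and 30.8 CPM in citral roots at 1 h, against 84.5, 49.8 and 60.5 CPM in ethanol roots (-0.96 ± 0.31, adjusted p = 0.0124), with no overlap for either gene. Without citral replicate 1 both calls were lost (adjusted p = 0.138 for LHCB3 and 0.107 for LHCB1.5), and without citral replicate 3 that of LHCB3 (0.0942).

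LHCB1.3, LHCB1.5, LHCB2.3 and LHCB3 overlap a gene on the opposite strand, and whether counting used strand is not stated. Reads of the overlapping stretch therefore cannot be assigned with certainty to the gene or to its neighbour. The neighbour of LHCB1.3, NRPA2 (AT1G29940), had 80.6 ± 6.77 CPM in citral roots at 6 h and 79.96 ± 5.58 CPM in ethanol roots, near the level of LHCB1.3 there. RWA3 (AT2G34410), which overlaps LHCB1.5, had 28.2 ± 2.83 CPM in citral roots at 1 h and 35.5 ± 0.301 CPM in ethanol roots. ATM2 (AT5G54280), which overlaps LHCB3, had 76.2 ± 3.73 CPM in citral roots at 1 h and 74.6 ± 2.19 CPM in ethanol roots (SD, n = 3 each). AT3G27700, which overlaps LHCB2.3, had 48.5 ± 0.926 CPM in citral roots at 6 h and 39.2 ± 4.39 CPM in ethanol roots, while LHCB2.3 was at the floor in all 3 of those citral libraries. In shoots NRPA2 had 123 ± 5.39 CPM in citral at 6 h and 78.1 ± 2.97 CPM in ethanol, where LHCB1.3 averaged 2104 and 9014 CPM. LHCB4.1 has no such neighbour.

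**Figure D4:**
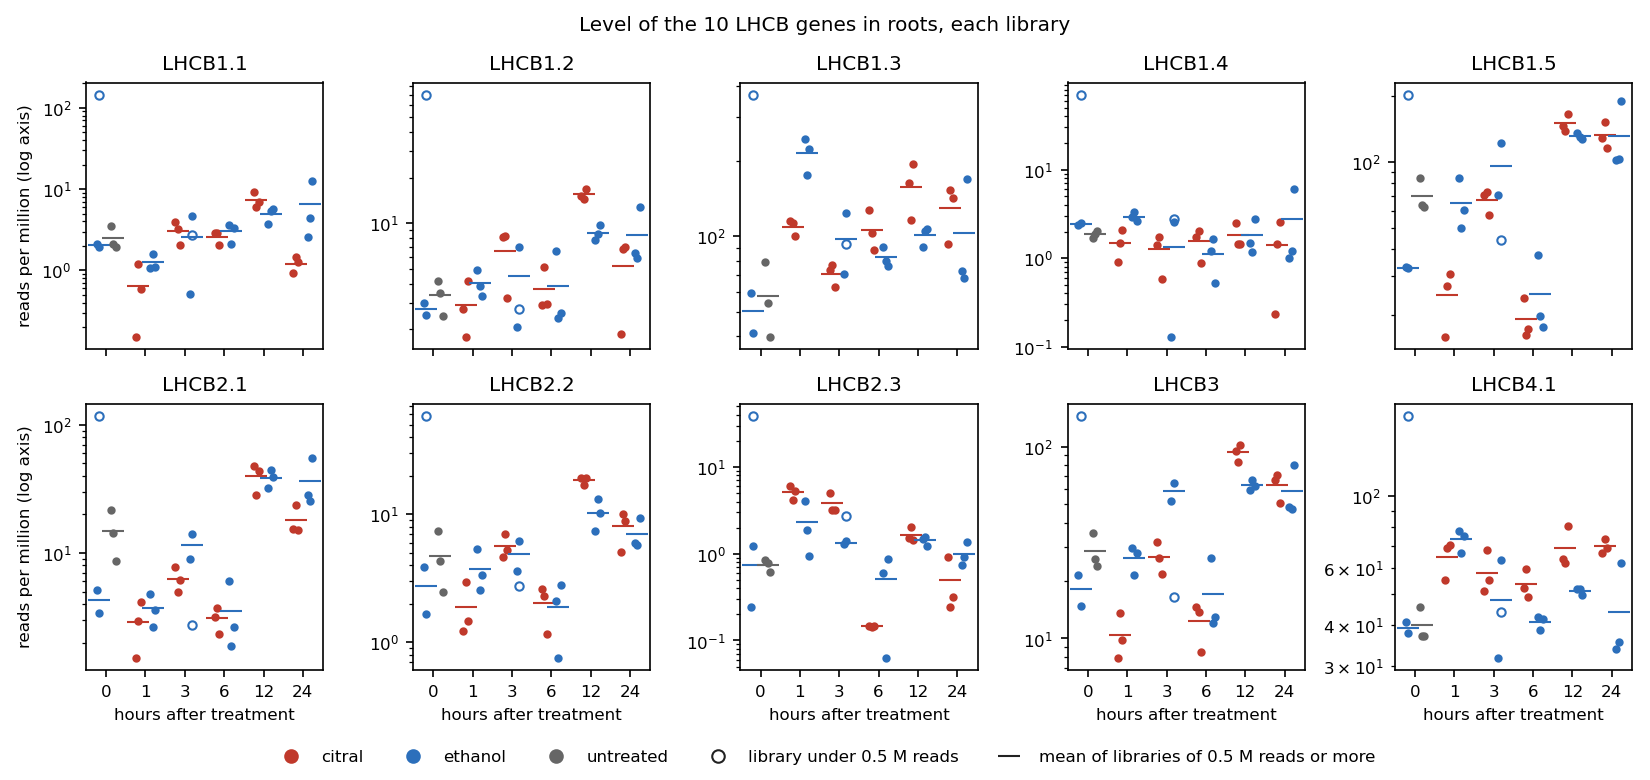
Reads per 1000000 (CPM, log axis) of each LHCB gene in each root library against the hours after treatment, drawn as for shoots. LHCB4.1 in citral lies above ethanol at 24 h, and the open circle at 0 h is the library of 0.255 M reads, with 145 CPM of LHCB1.1.

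Replicate 1 of ethanol roots at 0 h stood apart from its partners. It had 1394 CPM of the 10 genes together, against 171 and 140 CPM, and 466 CPM of the shoot markers, against 54.05 and 39.96 CPM. Between ethanol and untreated roots at 0 h LHCB1.5 (-0.96 ± 0.22) and LHCB2.1 (-1.52 ± 0.37) were called lower in ethanol (10.5% of all loci). In ethanol roots 4 of the 10 genes were called higher at 1 h than at 0 h (19.9%), and between 24 h and 0 h 5 were higher (18.3%) and 1 lower (23.1%). Without that library the members called were also 2, 4 and 6 in these 3 comparisons. Leaving out replicate 2 or 3 at 0 h instead gave 0 and 0, 1 and 1, and 4 and 2.

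At successive times in ethanol roots, 3 h against 1 h gave 2 of the 10 genes higher (7.99% of all loci) and 2 lower (7.45%), and 6 h against 3 h gave 3 lower (2.79%). At 12 h 7 were higher than at 6 h (10.3%), and at 24 h 4 were lower than at 12 h (8.78%). LHCB2.1 had 32.4, 44.3 and 38.98 CPM in ethanol roots at 12 h, against 6.01, 1.89 and 2.63 CPM at 6 h (4.1 ± 0.44), with no overlap.

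The citral response of all 10 genes differed between shoots and roots over the 5 times (limma F test on all 72 libraries, adjusted p from 5.28e-12 for LHCB1.2 to 0.0047 for LHCB1.4), as it did for 64.0% of all loci. By time, the response was called lower in shoots than in roots for 1 gene at 1 h (7.45% of all loci), 6 at 3 h (9.22%), 10 at 6 h (12.3%), 2 at 12 h (10.1%) and 3 at 24 h (16.5%). At 6 h the difference of log2 changes was -5.32 ± 1.1 for LHCB2.3 and -1.74 ± 0.22 for LHCB4.1, with a median of -4.17 over the 10 genes against 0.015 over all loci. The root part of the LHCB2.3 value rests on the floor. All citral root libraries at 6 h and ethanol root replicate 2 held 0 reads of it. The floor value stands for up to 0.146 CPM in those citral libraries and 0.0629 CPM in that deeper ethanol library.

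Most related genes of the antenna and photosystems were also lower in citral shoots. At 6 h, when 19.9% of all loci were called lower and 21.6% higher, 3 of 5 other photosystem II antenna genes were called lower in citral shoots and 1 higher. LHCB4.2, another CP29 gene, averaged 199 CPM in citral shoots, against 1811 CPM in ethanol shoots (-3.18 ± 0.19), and LHCB6, the antenna CP24, was at -2.44 ± 0.16. The higher one, LHCB4.3, named here after its value was seen, was at 0.94 ± 0.30. Of 6 photosystem I antenna genes 6 were lower, with LHCA4 at -2.94 ± 0.13 and LHCA1 at -2.61 ± 0.15, and of 10 nuclear genes of the photosystem II core 10 were lower, with PSBQ2 at -2.03 ± 0.11 and PSBP1 at -1.59 ± 0.11. The median log2 change of these lists at 6 h was -2.12, -1.91 and -1.17, beside -3.82 for the 10 LHCB genes. The differences between lists were not tested.

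Of 15 genes of chlorophyll synthesis 14 were called lower in citral shoots at 3 h and 14 at 6 h, with 0 higher (of all loci 26.4% were lower at 3 h and 19.9% at 6 h). CAO, which makes the chlorophyll b that LHCB proteins bind, averaged 140 CPM in citral shoots at 3 h, against 367 CPM in ethanol shoots (-1.27 ± 0.11), and PORA, a protochlorophyllide reductase, was at -2.38 ± 0.60. Of 8 genes of chlorophyll breakdown 7 were called higher in citral shoots at 3 h (23.7% of all loci) and 0 lower, with SGR2 at 1.97 ± 0.46 and HCAR, an enzyme of chlorophyll b reduction, at 1.53 ± 0.17. The shoot markers also had called members: 5 of 9 were lower at 6 h (19.9% of all loci), and their summed level was 6842 to 7729 CPM in citral shoots, against 11370 to 16250 CPM in ethanol shoots. Their part in the LHCB result was not tested.

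**Figure D5:**
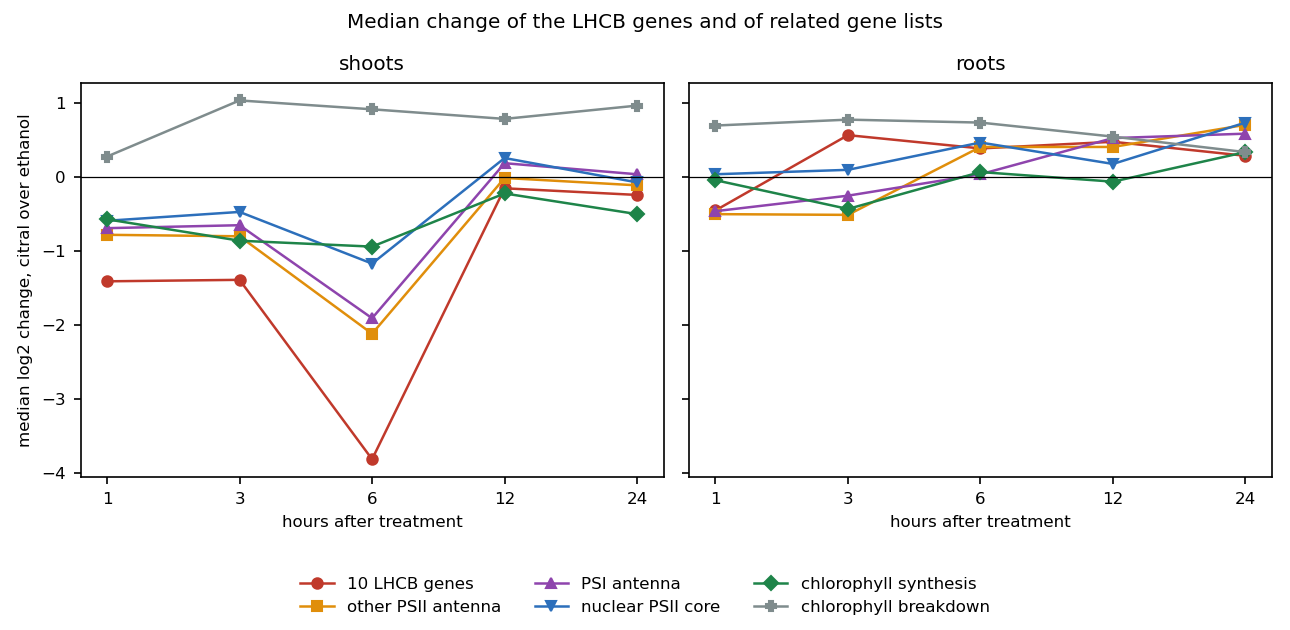
Median log2 change in citral over ethanol of the 10 LHCB genes and of related gene lists against the hours after treatment, for shoots and roots. In shoots the LHCB median is lowest at 6 h, at -3.82, and the chlorophyll breakdown median is above 0 throughout, and in roots the LHCB median stays between -0.45 and 0.57.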

How the data were processed

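Seedling shoots and roots gave column-purified RNA and TruSeq libraries, per the labels' protocols. One protocol label names t-chalcone as the agent, but the agent labels, the title and the design all name citral, which was followed. The authors deposited 22122 loci by 72 libraries as whole numbers of at least 1, with TMM named for the table, here treated as a score. The submitters' processing notes name TAIR10 as build, while sequences and positions come from TAIR10.1. Aligner, counter and strand setting are not stated. The deposited columns sum to 129632 to 23112599. Values were treated as whole reads times 1 factor per library (0.666 to 1.31) and rounded. Of values up to 400, at least 99.79% in each library could be written this way. Where the factor is below 1, every whole number can be. This held for all root and some shoot libraries, so the share cannot test the recovery there. Reads were taken as the value over its library factor, with a floor value taken as 0.5 read. Columns of other samples numbered 0. The deposited values were not raw counts, so the recovered reads were fitted instead, with limma's voom as given below. Replicate numbers follow accession order and pair nothing. Of 72 replicate pairs 0 were identical, so all were kept as separate libraries. The chi-square per locus, near 1 for counting error alone, had a median of 4.31. It was lowest, at 1.26, for replicates 1 and 2 of ethanol roots at 24 h, which may be technical repeats. This was not tested. The highest values, 103 and 97.7, were those of ethanol shoots at 12 h replicate 2 with its partners.

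Reads were fitted with limma 3.58.1 in R 4.3.3 (voom with library quality weights, TMM factors computed here with 30% and 5% trims over loci of 10 CPM or more, robust moderated tests, Benjamini-Hochberg adjustment). Each organ was 1 model of 12 group means over loci with 1 CPM in at least 3 libraries (19585 in shoots, 20147 in roots), and organs were compared in 1 model of 72 libraries (21092 loci). All 10 genes passed the filter in both organs. Fold changes are fitted values, while CPM are plain scaled reads. Limits from a count of 0 cover counting error only. On simulated data for citral at 6 h, 63% of shoot genes changed by 1 on the log2 scale and 100% of those changed by 2 were recovered (19402 loci), and 56% and 97% in roots (20012 loci). The changed genes were drawn from those above a set mean level, with the same spread for every gene and library. All other genes had the same mean in every group, unlike the data. The recovery rates therefore do not cover members near the floor, such as LHCB2.3 in roots, libraries of unequal quality, or data where many loci change. The rate of false calls in the simulation is not reported here. Members, gene lists and tests were chosen with earlier results of these data known. Named outside the 10 genes were up to 2 called genes per list and organ, the 3 loci most alike, the genes used to check the labels and overlapping neighbours. LHCB4.3, OHP1, OHP2, SEP1, TAP38 and STN7 fall outside that rule in shoots and were named after their values were seen. The alternatives were other scalings, filters, weights, pseudocounts and references, and fits without single libraries.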

Additional observations from a re-analysis of the deposited data

Results flagged for a closer look

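The citral response of each of the 10 genes differed between shoots and roots when the 5 times were tested together in 1 limma F test, with Benjamini-Hochberg adjustment over 21092 loci. The adjusted p was 2.44e-06 for LHCB1.1, 5.28e-12 for LHCB1.2, 2.65e-08 for LHCB1.3, 0.0047 for LHCB1.4 and 4.24e-09 for LHCB1.5. It was 3.73e-05 for LHCB2.1, 1.41e-07 for LHCB2.2, 1.83e-10 for LHCB2.3, 3.05e-10 for LHCB3 and 4.54e-10 for LHCB4.1. Of all loci 64.0% passed the same test.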

How the results depend on the processing

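The shoot counts at 1, 3 and 6 h ranged over 6 to 9, 8 to 10 and 10 to 10 members called under every alternative run. No paired analysis was possible because the labels carry no replicate numbers. Of the alternative values of single genes, 771 in shoots and 711 in roots kept direction and side of the threshold, 39 and 77 lost the call, 29 and 31 gained it, and 11 and 4 changed sign. Depth limits the values of the 4 control libraries under 0.5 M reads and of genes near the floor, such as LHCB2.3 in roots. Citral libraries were also shallower than most controls, and the part of this in the results was not tested. In citral against ethanol the median over all loci was furthest from 0 at -0.364 with recovered totals alone (roots, 3 h), -0.226 with the authors' factors (shoots, 3 h), 0.721 with limma-trend at 0.1 CPM and 0.255 without library weights (both shoots, 12 h). The call of LHCB1.3 in shoots at 3 h was lost with limma-trend and without library weights, and that of LHCB4.1 in roots at 24 h with limma-trend.

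All sign changes came with the mean of the 5 ethanol groups as the reference, which by construction removes the matching of times. In shoots at 12 h the log2 change was then 0.20 for LHCB1.1, 0.81 for LHCB2.1, 0.53 for LHCB2.2, 0.07 for LHCB2.3 and 0.31 for LHCB3. At 24 h it was 0.34 for LHCB1.1, 0.01 for LHCB1.2, 0.94 for LHCB2.1, 0.73 for LHCB2.2, 0.25 for LHCB2.3 and 0.42 for LHCB3. In roots LHCB2.1 was at -1.54 at 1 h, -1.61 at 6 h, 1.99 at 12 h and 0.93 at 24 h.

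Members called in shoots for citral against ethanol at 24 h became 5 with quantile normalization, with loci averaging 10 CPM or more, with the mean ethanol reference and with the compared groups alone. For ethanol against untreated shoots at 0 h the count became 0 with limma-trend at either pseudocount. For ethanol shoots at 6 h against 3 h it became 5 with quantile normalization and with limma-trend. At 24 h against 12 h it became 0 with the authors' factors, with limma-trend at 0.1 CPM and without library weights, 2 with loci averaging 10 CPM or more, 3 without a filter and 4 with the compared groups alone. At 24 h against 0 h it became 2 with limma-trend.

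In roots for citral against ethanol, the count at 1 h became 0 and 1 with limma-trend at 0.5 and 0.1 CPM and 5 with the mean reference. At 3 h it became 1 with recovered totals and 0 with limma-trend or without weights. At 6 h it became 0 with limma-trend or without weights, 3 with the mean reference and 2 with the compared groups alone. At 12 h it became 3 with the authors' factors, recovered totals or loci averaging 10 CPM, 0 with limma-trend or without weights and 8 with the mean reference. At 24 h it became 4 with loci averaging 10 CPM or the mean reference, 0 with limma-trend and 1 without weights.

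For ethanol against untreated roots the count became 0 with limma-trend and 1 with the compared groups alone. For ethanol roots, limma-trend gave 1 at 1 h against 0 h, 0 at 3 h against 1 h, 1 at 6 h against 3 h, 4 at 12 h against 6 h, 0 at 24 h against 12 h and 0 at 24 h against 0 h. At 12 h against 6 h loci averaging 10 CPM gave 4, at 24 h against 12 h no weights gave 0 and the compared groups alone 8, and at 24 h against 0 h the compared groups alone gave 3. The cause of these moves was not tested.

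Leaving out 1 library at a time, the number of members called for citral lay between 0 and 4 in shoots at 12 h and between 2 and 5 in shoots at 24 h. In roots it lay between 1 and 3 (1 h), 0 and 2 (3 h), 0 and 1 (6 h), 1 and 4 (12 h) and 0 and 4 (24 h). Among ethanol shoots it lay between 0 and 1 for 0 h against untreated, 4 and 7 for 12 h against 6 h, 0 and 1 for 24 h against 12 h, and 3 and 5 for 24 h against 0 h. Among ethanol roots it lay between 0 and 3 for 0 h against untreated, 1 and 4 for 1 h against 0 h, 0 and 5 for 3 h against 1 h, 0 and 3 for 6 h against 3 h, 0 and 4 for 24 h against 12 h, and 2 and 7 for 24 h against 0 h.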

Other observations

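Of 14 regulators known to act on LHCB genes 10 were called lower in citral shoots at 3 h (26.4% of all loci) and 1 higher (23.7%), by limma's voom with library quality weights. At 6 h 4 were lower (19.9%) and 2 higher (21.6%), both near the shares of all loci. LHY, a clock transcription factor, was at -2.20 ± 0.31 (log2 change ± SE) and GNC, a GATA factor of greening, at -1.87 ± 0.18 at 3 h. GNC averaged 8.85 CPM in citral shoots at 3 h, against 37.4 CPM in ethanol shoots. In roots at 3 h GLK2, an activator of photosynthesis genes, was at -1.70 ± 0.36 with overlapping libraries, and HY5, a light-signalling factor, at 1.68 ± 0.22.

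ELIP1 and ELIP2, stress-induced relatives of the LHCB proteins, were called higher in citral roots at 6 h. ELIP2 averaged 46.6 CPM in citral roots, against 1.66 CPM in ethanol roots (4.56 ± 0.46), and ELIP1 was at 3.72 ± 0.45. In shoots at 6 h ELIP2 was at 4.69 ± 1.25 and ELIP1 at 2.0 ± 0.77, with overlapping libraries for both genes. The other 3 genes of that list of 5 relatives went the other way in shoots at 6 h and were called lower: OHP1 at -0.89 ± 0.16, SEP1 at -0.47 ± 0.13 and OHP2 at -0.32 ± 0.12, all 3 named after their values were seen. The median of the list was -0.32. Of 5 genes of antenna targeting to the thylakoid 5 were lower in citral shoots at 6 h (19.9% of all loci), with LTD at -0.88 ± 0.12 and CPSRP54 at -0.48 ± 0.10. Of 4 genes of thylakoid protein phosphorylation 3 were lower: STN8, a kinase of photosystem II core proteins, at -0.50 ± 0.14, PBCP, the phosphatase of core proteins, at -0.39 ± 0.12, and TAP38, the phosphatase of LHCII, at -0.28 ± 0.11. STN7, the LHCII kinase, was at -0.23 ± 0.12 and not called (adjusted p = 0.135, limma).

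In roots, genes of the photosystem II core were among those called higher: 6 of 10 at 24 h (20.3% of all loci) and 0 lower, with PSBY at 1.47 ± 0.24 and PSBX at 1.09 ± 0.16. Of 8 root markers 8 were lower in citral roots at 24 h (18.2% of all loci) and 0 higher, and their summed level was 123 to 169 CPM in citral roots, against 356 to 373 CPM in ethanol roots. The part of these markers in the root LHCB values was not tested.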
